A study of Mus musculus with 8 samples.

Results

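The inhibitors of the INK4 class (Cdkn2a, Cdkn2b, Cdkn2c and Cdkn2d), the CIP/KIP inhibitor p27 (Cdkn1b) and the 3 genes of the retinoblastoma family (Rb1, Rbl1 and Rbl2) were examined in undifferentiated pleomorphic sarcoma (UPS) of the mouse. They were taken by gene symbol from the raw count table, which held 8 of these 8 symbols among its 26667 genes. KP tumours carried Trp53 fl/fl together with a Cre-activated oncogene, and KPH2 tumours carried the same alleles plus Epas1 fl/fl, which removes HIF-2α. Both groups came from adult mice of mixed 129 and C57BL/6 background, in which an adenovirus expressing Cre had been injected into the hind limb muscle, so that recombination depended on infection and not on a tissue promoter, and host cells in the section kept unrecombined alleles. The end point was either a fixed 7-week interval from injection or a limit on tumour size, and the sources used here do not give which applied to each tumour. RNA from fixed, paraffin-embedded sections of 4 KP (KP 5 to KP 8) and 4 KPH2 tumours (KPH2 1 to KPH2 4) was sequenced, with 1 library per tumour. The study set aside 1 knockout tumour as a technical outlier, which was taken to be KPH2 1 since it is missing from the smaller of the deposited normalised tables. The study's Results and Methods differ on which genotype had the smaller number of tumours, so this choice is an inference. It is therefore shown apart, and the members' comparisons are given over 7 tumours without it and over all 8.

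INK4 proteins bind the cyclin D kinases CDK4 and CDK6 and keep them from phosphorylating the retinoblastoma proteins, while p27 mainly holds back the cyclin E and cyclin A complexes of CDK2. Unphosphorylated pRb restrains the activating E2F factors, and its relatives p107 (Rbl1) and p130 (Rbl2) join repressor E2F factors and the MuvB core in the DREAM complex, which silences cell-cycle genes in resting cells. The Cdkn2a locus also encodes ARF, which inhibits MDM2 and so stabilises p53, the product of the gene floxed in both groups. Transcripts of the locus commonly accumulate in cells that lack p53.

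Both Cdkn2a products are read from 1 gene, and the counts could not separate them. In GENCODE the p16Ink4a transcript starts at an exon on chr4:89281986-89282192 (GRCm38, minus strand) and the p19Arf transcript at an exon on chr4:89294334-89294653, and both join the same second exon, chr4:89276645-89276985, which is read in a different frame in each. Of the 1172 exon bases of the gene, 575 (49.1%) were shared, 277 (23.6%) belonged to p16Ink4a alone and 320 (27.3%) to p19Arf alone. The 2 splice junctions are printed because they show where the products part and what they share, with lower case for the end of each first exon and capitals for the shared second exon, in RefSeq-supported transcripts of the GRCm38 genome.
p16Ink4a: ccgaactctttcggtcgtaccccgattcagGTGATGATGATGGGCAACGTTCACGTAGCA
p19Arf: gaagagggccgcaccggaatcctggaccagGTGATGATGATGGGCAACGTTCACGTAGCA
The letters after the junction were identical, so a read that lay wholly within them could come from either product, and the levels given for Cdkn2a are the sum of the 2 transcripts. Cdkn2b, the neighbouring INK4 gene (p15), lies at chr4:89306289-89311032 on the same strand. The longest run of bases that Cdkn2a and Cdkn2b transcripts shared was 23. None of the 100-base windows of either gene (0%) was found in a GENCODE transcript of another gene, and sequence outside these transcripts was not searched.

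The other members lie apart from that locus. Cdkn2c (p18) is at chr4:109660876-109666756, Cdkn2d (p19Ink4d) at chr9:21288459-21291421, Cdkn1b at chr6:134920401-134925525, Rb1 at chr14:73192858-73325951, Rbl1 at chr2:157145893-157204534 and Rbl2 at chr8:91070057-91123844 (GRCm38.p6, RefSeq). Exons of Rb1 overlapped Rcbtb2 on the opposite strand over 105 bases, 2.26% of its exon bases, and exons of Rbl2 overlapped Aktip over 418 bases (8.49%) and Gm45464 over 408 bases (8.28%). The strand setting of the counting is not given in the sources used here, so the level of Rbl2 in particular carries this uncertainty.

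Promoter windows of 250 bases before the start were available from RefSeq (GRCm38.p6) for 9 starts of 7 members. A canonical E2F site (TTTCCCGC, TTTGGCGC, TTTCGCGC or TTTGCCGC, either strand) was present in 2 of the 9, against 1.86% of 32851 promoters of all genes. One was the window of Rbl1, with the site 18 bases before the start, and the other was that of the p19Arf start, with the site 99 bases before the RefSeq start. That start lies inside the first exon as GENCODE draws it, so 34 bases of the printed window belong to the GENCODE exon. These windows are shown because Rb family proteins act through E2F, with the matching letters in capitals.
Rbl1 promoter, chr2:157204535-157204784, minus strand: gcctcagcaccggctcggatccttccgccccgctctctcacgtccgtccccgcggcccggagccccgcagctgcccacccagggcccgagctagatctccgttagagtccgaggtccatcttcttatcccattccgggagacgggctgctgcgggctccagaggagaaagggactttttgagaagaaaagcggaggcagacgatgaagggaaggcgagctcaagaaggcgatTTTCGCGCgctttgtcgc
Cdkn2a promoter at the p19Arf start, chr4:89294620-89294869, minus strand: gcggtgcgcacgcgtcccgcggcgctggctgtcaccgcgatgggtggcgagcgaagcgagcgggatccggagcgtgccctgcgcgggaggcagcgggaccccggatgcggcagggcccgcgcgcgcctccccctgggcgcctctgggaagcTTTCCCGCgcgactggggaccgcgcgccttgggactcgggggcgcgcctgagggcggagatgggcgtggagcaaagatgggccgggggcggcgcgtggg
The core of the element that HIF factors bind (ACGTG or GCGTG, either strand) was present in 8 of the 9 windows and in 38.6% of all promoters. Each of the 7 members with a window had such a match, and the window of the p19Arf start held 4. The window of Cdkn1b is printed because its groups did not overlap over 7 tumours. That was so for 16.8% of all genes, and the Cdkn1b groups overlapped once KPH2 1 was included. It held 1 match 172 bases before the start, marked in capitals and read on the opposite strand.
Cdkn1b promoter, chr6:134920151-134920400, plus strand: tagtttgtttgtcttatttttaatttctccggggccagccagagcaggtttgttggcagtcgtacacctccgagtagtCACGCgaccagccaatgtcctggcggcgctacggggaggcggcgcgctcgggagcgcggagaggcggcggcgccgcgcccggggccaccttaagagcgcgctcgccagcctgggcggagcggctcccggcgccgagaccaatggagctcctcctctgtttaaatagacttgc
Matches of the 2 motifs did not overlap in the windows printed. A match is a description of letters only, and binding was not measured in these libraries.

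Levels were expressed as CPM, the counts of a library scaled to a fixed total, on TMM library sizes (the trimmed mean normalisation of edgeR) of all 8 tumours. Total counts ran from 6463221 to 13155510 per tumour, and the members had between 45 and 2517 counts in a tumour, so that each passed the filter on low counts. Epas1, the targeted gene, was lower in each KPH2 tumour (32.0 CPM in KPH2 1 and 37.8 to 54.2 CPM in KPH2 2 to 4) than in any KP tumour (59.6 to 85.5 CPM), a log2 fold change of −0.81 (SE 0.19) with an adjusted p of 0.0742 over 7 tumours (edgeR's quasi-likelihood test, adjusted by Benjamini and Hochberg's method). Epas1 passed in 3 of 16 alternatives, without KP 5 (adjusted p = 0.0442, same test) and by both DESeq2 fits (0.0115 and 0.0119), and not in the other 13, such as all 8 tumours (log2 fold change −0.91, adjusted p = 0.117) or the muscle score in the fit (−0.67, adjusted p = 0.870). Trp53 lay between 12.9 and 18.3 CPM in all 8 tumours (log2 fold change −0.03, adjusted p = 0.962 by the same test). The 10 mesenchymal markers summed to 17897 to 41975 CPM in KP tumours, 21770 to 30642 CPM in KPH2 2 to 4 and 27133 CPM in KPH2 1, with 3 higher and 7 lower in KPH2 2 to 4 and 1 of them past the adjusted p, lower. Of 30 skeletal muscle markers all were higher in KPH2 2 to 4 (3 past the adjusted p), with a summed level of 4380 to 19920 CPM against 1827 to 3406 CPM in KP tumours and 1501 CPM in KPH2 1. Macrophage markers summed to 2479 to 4436 CPM in KP tumours and 1847 to 2722 CPM in KPH2 2 to 4 (0 of 11 higher), with 2283 CPM in KPH2 1. Endothelial markers summed to 319 to 609 CPM in KP tumours, 321 to 332 CPM in KPH2 2 to 4 (1 of 9 higher) and 231 CPM in KPH2 1. No gene of these 3 lists was at 0 in all tumours, and in such bulk tissue fewer cells of a type and less RNA per cell cannot be told apart.

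No member differed between KPH2 and KP tumours past the adjusted p of 0.05. By the quasi-likelihood test of edgeR, adjusted by the method of Benjamini and Hochberg, 0 of 8 members passed over 7 tumours, where 292 of 14867 genes (1.96%) did, and 0 of 8 passed over all 8 tumours, where 1 of 14805 genes (0.00675%) did. At an unadjusted p under 0.05, 1 member (Cdkn1b, lower in KPH2) passed over 7 tumours and none over 8, against 17.8% and 14.7% of all genes. DESeq2 called 0 members in either set of tumours. Over 7 tumours 5 members were higher and 3 lower in KPH2, with a median log2 fold change of 0.19, and all genes had a median of −0.02. For 7 of 8 members the 95% interval over 7 tumours lay within a 2-fold change in either direction, the exception being Cdkn2b, and over all 8 tumours each of the 8 intervals did. With KPH2 1 included the log2 fold changes were 0.26 for Cdkn2a, 0.35 for Cdkn2b, 0.14 for Cdkn2c, −0.30 for Cdkn2d, −0.09 for Cdkn1b, 0.18 for Rb1, −0.04 for Rbl1 and 0.27 for Rbl2 (adjusted p 0.551 to 0.949 by edgeR's test).

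**Figure D1:**
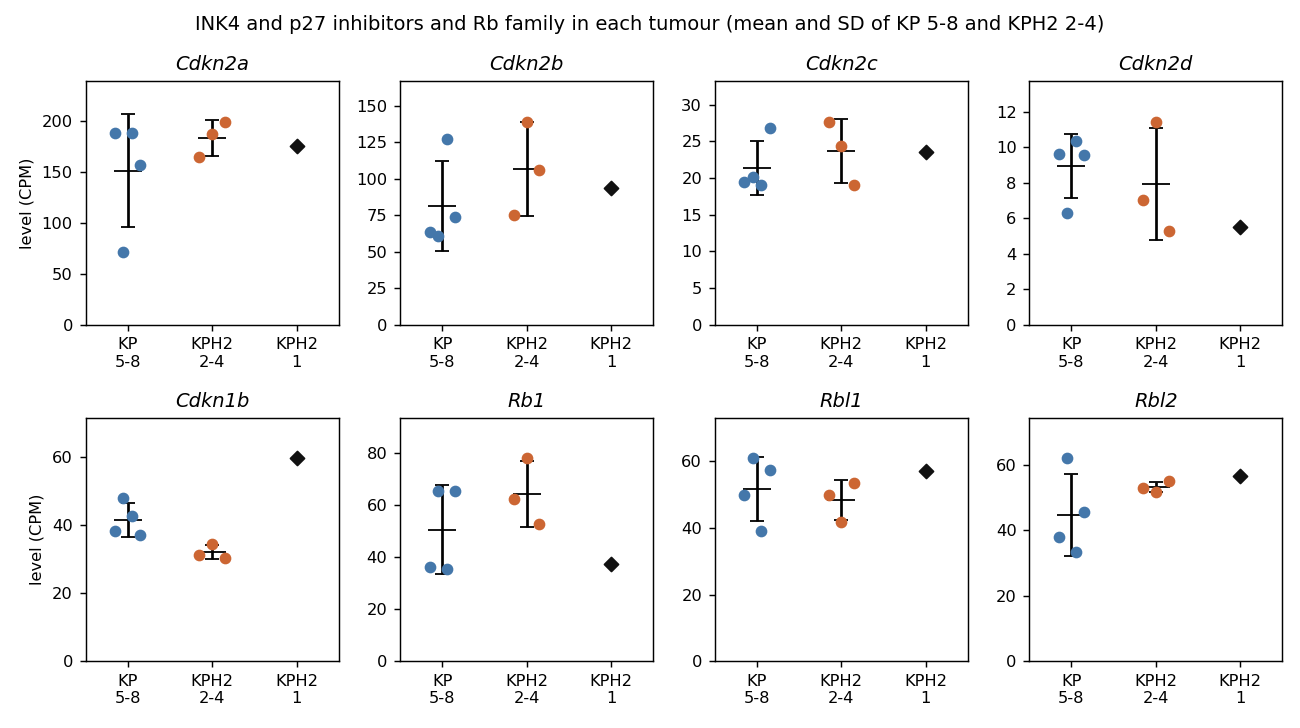
Level of each gene in CPM (vertical axes, from 0) in KP 5 to KP 8 (blue), KPH2 2 to KPH2 4 (orange) and KPH2 1 (black diamond), where bars are the mean and SD of each group. The groups overlap for 7 genes, and for Cdkn1b the KPH2 2 to 4 points (30.4 to 34.4) lie below the KP points (37.1 to 47.8) while KPH2 1 is the highest at 59.5.

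Cdkn2a was read well in every tumour, with 509 to 2517 counts. It stood at 188 CPM in KP 5, 71.1 in KP 6, 189 in KP 7 and 157 in KP 8, at 164, 187 and 199 CPM in KPH2 2, 3 and 4, and at 176 CPM in KPH2 1. A single KP tumour, KP 6, had a level below all others, and the remaining tumours of both genotypes overlapped. KP tumours averaged 151 ± 55.4 CPM (SD, n = 4) and KPH2 tumours 184 ± 17.7 CPM (SD, n = 3), with a log2 fold change of 0.27 (SE 0.31, 95% interval −0.44 to 0.97) and an adjusted p of 0.705 by edgeR's quasi-likelihood test. Without KP 6 the log2 fold change was 0.04.

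Cdkn2b, which encodes p15 and is known as a target of TGF-β signalling, was also lowest in KP 6. Its levels were 63.7, 60.5, 127 and 73.6 CPM in KP 5 to KP 8, 74.9, 139 and 106 CPM in KPH2 2 to 4, and 93.6 CPM in KPH2 1. One tumour of each genotype (KP 7 and KPH2 3) lay well above the rest, and the groups overlapped. The log2 fold change was 0.38 (SE 0.31, 95% interval −0.33 to 1.10, adjusted p = 0.580 by edgeR's test). It was 0.14 without KPH2 3, 0.59 without KPH2 2, 0.69 without KP 7 and 0.65 with the skeletal muscle score in the fit. Counts of Cdkn2a divided by those of Cdkn2b ran from 1.18 in KP 6 to 2.95 in KP 5 and, in KPH2 tumours, from 1.34 to 2.19, so that the range within KP held the whole range of KPH2.

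Cdkn2c, which encodes p18, was measured at 19.4, 20.1, 19.1 and 26.9 CPM in KP 5 to KP 8, at 27.7, 24.4 and 19.01 CPM in KPH2 2 to 4 and at 23.6 CPM in KPH2 1. Its highest tumour stood at 1.46 times its lowest, and KP 8 lay apart from the other KP tumours. The log2 fold change was 0.13 (SE 0.20, 95% interval −0.31 to 0.58, adjusted p = 0.778 by edgeR's test), and it ranged from 0.02 without KPH2 2 to 0.27 without KPH2 4. With a skeletal muscle score in the fit it was −0.33 (adjusted p = 0.945 by the same test).

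Cdkn2d had the fewest counts, from 45 to 129 in a tumour. It was found at 9.64, 6.29, 10.4 and 9.55 CPM in KP 5 to KP 8, at 7.04, 11.4 and 5.29 CPM in KPH2 2 to 4, and at 5.48 CPM in KPH2 1. Both genotypes spanned low and high tumours, and the log2 fold change was −0.19 (SE 0.31, 95% interval −0.91 to 0.53, adjusted p = 0.810 by edgeR's test). The direction turned to 0.03 without KPH2 4 and the value was −0.55 without KPH2 3. With the muscle score in the fit it was −0.97 (adjusted p = 0.849 by edgeR's test).

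p27 was the member in which the groups parted. Cdkn1b stood at 38.2, 47.8, 42.7 and 37.1 CPM in KP 5 to KP 8 and at 31.3, 34.4 and 30.4 CPM in KPH2 2 to 4. Every KPH2 tumour of these 3 lay below every KP tumour, but the tumour set apart, KPH2 1, had the highest level of all 8 at 59.5 CPM. Over 7 tumours KP tumours averaged 41.5 ± 4.87 CPM (SD, n = 4) and KPH2 tumours 32.0 ± 2.13 CPM (SD, n = 3), a log2 fold change of −0.39 (SE 0.16, 95% interval −0.74 to −0.03). The exact permutation test over the 35 groupings of the 7 tumours gave p = 0.0286 (2-sided), the smallest it can give, whereas edgeR's quasi-likelihood test gave p = 0.0376 and an adjusted p of 0.246 over all genes. Groups that did not overlap were seen in 16.8% of all genes over 7 tumours and in 8.15% over all 8, so 1 of 8 members is near that background. With KPH2 1 included the groups overlapped, the log2 fold change was −0.09 (95% interval −0.63 to 0.45), the adjusted p by edgeR's test was 0.902, and the exact permutation p over the 70 groupings was 0.629 (2-sided).

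**Figure D2:**
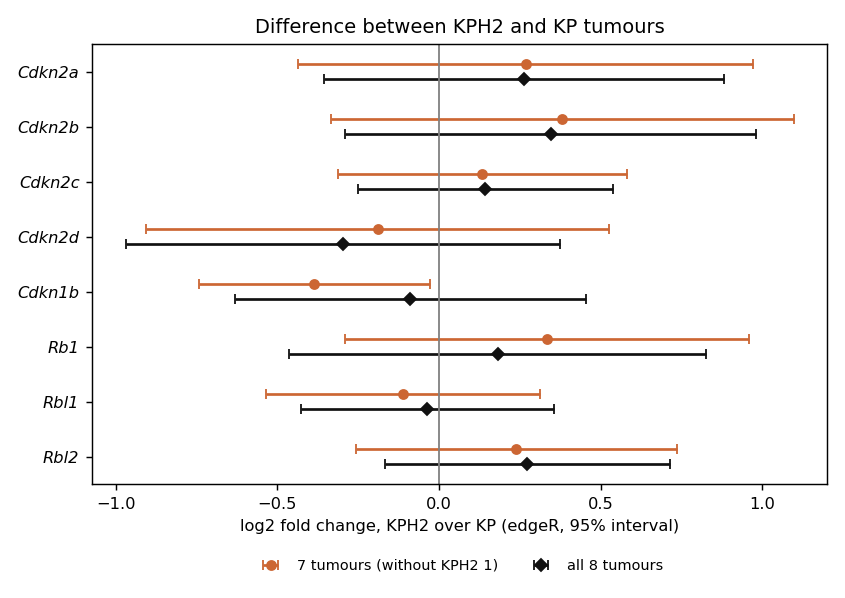
Log2 fold change of KPH2 over KP tumours with its 95% interval from edgeR (horizontal axis) for each gene, without KPH2 1 (orange) and over all 8 tumours (black). The Cdkn1b interval of −0.74 to −0.03 over 7 tumours is the one that leaves out 0, and over 8 tumours each interval includes 0.

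The level of Rb1, the pocket protein that binds the activating E2F factors, fell into a lower and an upper range in KP tumours. It was 36.2, 65.5, 35.4 and 65.6 CPM in KP 5 to KP 8, 62.4, 78.1 and 53.0 CPM in KPH2 2 to 4, and 37.4 CPM in KPH2 1. Both ranges held tumours of each genotype once KPH2 1 was counted. The log2 fold change was 0.33 (SE 0.27, 95% interval −0.29 to 0.96, adjusted p = 0.579 by edgeR's test) over 7 tumours and 0.18 (adjusted p = 0.814 by the same test) over 8. It was 0.17 without KPH2 3. KPH2 3, the tumour with the most Rb1, also had the highest summed muscle level, and once the muscle score entered the fit its log2 fold change was −0.18 (adjusted p = 0.978 by edgeR's test). The part of muscle in the Rb1 level was not tested further.

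Rbl1, itself a well-known E2F target, ranged narrowly. Its levels were 49.8, 60.8, 39.1 and 57.2 CPM in KP 5 to KP 8, 49.7, 41.9 and 53.3 CPM in KPH2 2 to 4, and 57.0 CPM in KPH2 1. All KPH2 tumours lay within the KP range, with a log2 fold change of −0.11 (SE 0.19, 95% interval −0.54 to 0.31, adjusted p = 0.812 by edgeR's test) that was −0.02 without KPH2 3 and −0.22 without KP 7.

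Rbl2, whose protein p130 is characteristic of resting cells, was measured at 37.8, 61.9, 33.2 and 45.6 CPM in KP 5 to KP 8, at 52.7, 51.8 and 55.0 CPM in KPH2 2 to 4 and at 56.4 CPM in KPH2 1. The KPH2 tumours lay close together (53.2 ± 1.65 CPM, SD, n = 3) within the wider range of KP (44.6 ± 12.6 CPM, SD, n = 4). The log2 fold change was 0.24 (SE 0.22, 95% interval −0.26 to 0.74, adjusted p = 0.621 by edgeR's test), and it was 0.44 without KP 6 and 0.13 without KP 7. Counts of Rbl1 divided by those of Rb1 lay between 0.872 and 1.38 in KP tumours, between 0.536 and 1.01 in KPH2 2 to 4 and at 1.52 in KPH2 1.

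Of the highest levels of the 8 genes 6 were in KPH2 tumours, which were 4 of the 8 tumours. That of Cdkn1b in KPH2 1, the tumour shown apart, is among them. The same share over all genes was not computed. KPH2 3 had the highest Cdkn2b, Cdkn2d and Rb1. KP 6 had the lowest Cdkn2a and Cdkn2b and the highest Rbl1 and Rbl2, while KP 7 had the lowest level of all 3 Rb family genes. KPH2 4 had the highest Cdkn2a and the lowest Cdkn2c, Cdkn2d and Cdkn1b. KP 6 and KP 7 were also the libraries with the lowest total counts (6463221 and 7073024), and the part of depth in these ranks was not tested.

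Divided by exon length, Cdkn2a and Cdkn2b stood above the other members. Cdkn2a had a mean of 142 ± 34.9 CPM per kilobase of exon (SD, n = 8 tumours), Cdkn2b 66.4 ± 21.2 and Cdkn1b 16.8 ± 4.06. Cdkn2a exceeded Cdkn2b in 8 of 8 tumours, with a ratio of means of 2.14, and Cdkn2b exceeded Cdkn1b in 8 of 8, with a ratio of 3.96. Below them Rb1 (11.6 ± 3.50), Rbl1 (10.5 ± 1.56), Rbl2 (10.01 ± 1.98) and Cdkn2c (8.39 ± 1.33) followed closely, and Cdkn2d was lowest (5.72 ± 1.68). Neighbours in this lower part changed places between tumours, since Cdkn1b exceeded Rb1 in 6 of 8, Rb1 exceeded Rbl1 in 5, Rbl1 exceeded Rbl2 in 4, Rbl2 exceeded Cdkn2c in 6 and Cdkn2c exceeded Cdkn2d in 7. Among Rb1, Rbl1, Rbl2 and Cdkn2c, taken in this order, neighbours did not differ beyond the spread over tumours. Cdkn2c over Cdkn2d had a mean log2 ratio of 0.594, above its SD of 0.467 over tumours. The same order was found with the longest transcript as the length, where Cdkn2a stood at 186 CPM per kilobase.

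**Figure D3:**
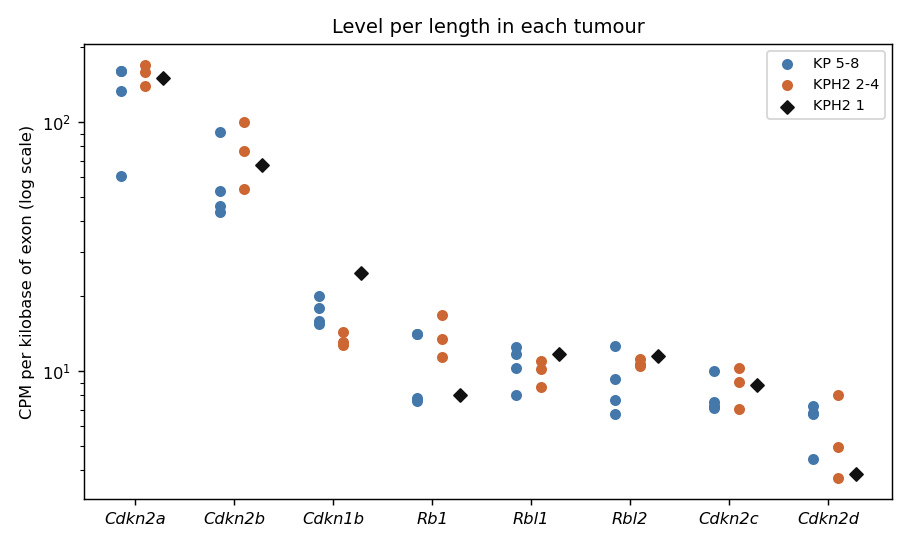
Level in CPM per kilobase of exon (vertical axis, log scale) for each gene in KP 5 to KP 8 (blue), KPH2 2 to KPH2 4 (orange) and KPH2 1 (black diamond), ordered by the mean over 8 tumours. Cdkn2a and Cdkn2b lie above the other 6 genes in each tumour, and the Rb family points overlap.

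Genes that act with the members were taken from 10 lists of the pathway, of which 105 genes were tested over 7 tumours. Of these 62 were higher and 43 lower in KPH2, where 48% of all genes were higher. By edgeR's quasi-likelihood test 1 passed the adjusted p, beside the 1.96% of all genes. At an unadjusted p under 0.05, 11 were higher and 1 was lower, beside 17.8% of all genes in either direction. Over all 8 tumours none passed the adjusted p (0.00675% of all genes did) and 11 passed the unadjusted one (14.7% of all genes did). Counts of genes past the adjusted p below are edgeR's over 7 tumours. DESeq2 over the same tumours, without and with a prior, called 5 genes of these lists, E2f2, Cdkn1a, Mnat1, Rrm2 and Cbx7, and none of the other lists. DESeq2 called 7.2% of all genes it tested without and 6.99% with a prior.

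The gene that passed was E2f2, which encodes an activating E2F factor bound by pRb. It stood at 8.37, 13.7, 7.44 and 12.99 CPM in KP 5 to KP 8 and at 20.7, 29.5 and 32.6 CPM in KPH2 2 to 4, with KPH2 1 at 9.09 CPM among the KP tumours. E2f2 rose with a log2 fold change of 1.37 (SE 0.27, adjusted p = 0.0491 by edgeR's test). The call was close to the threshold and was lost in each of the 7 fits that left out 1 tumour, KP or KPH2 (log2 fold change 1.22 to 1.54, adjusted p 0.0673 to 0.139), and over all 8 tumours (log2 fold change 1.10, adjusted p = 0.255). Of the 16 alternatives tried, 5 kept it. With the muscle score in the fit the log2 fold change of E2f2 was 1.48 (SE 0.48, adjusted p = 0.584 by edgeR's test). The other 9 genes of the E2F and DP list did not pass, with 5 higher and 4 lower.

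**Figure D4:**
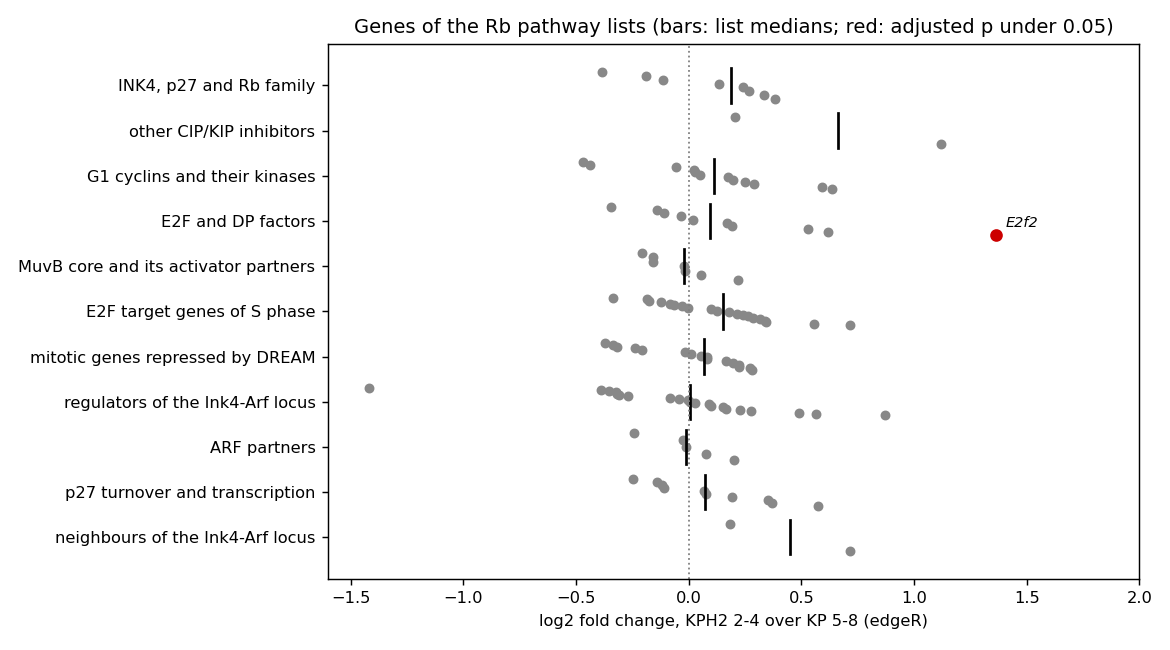
Log2 fold change of KPH2 2 to 4 over KP 5 to 8 (horizontal axis, edgeR) for each tested gene of the INK4, p27 and Rb family and of 10 pathway lists (rows), with bars at list medians and genes past the adjusted p of 0.05 in red. E2f2, at 1.37, is the 1 red point, and the median of the INK4, p27 and Rb family is 0.19.

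Among the other CIP/KIP inhibitors, Cdkn1a (p21, a classical p53 target) separated KPH2 2 to 4 and KPH2 1 from KP tumours in the opposite directions to Cdkn1b. Its levels were 18.0, 29.3, 23.8 and 22.9 CPM in KP 5 to KP 8, 66.5, 48.7 and 39.3 CPM in KPH2 2 to 4 and 14.5 CPM in KPH2 1. KPH2 2 to 4 lay above all KP tumours and KPH2 1 below them. The log2 fold change of Cdkn1a was 1.12 (SE 0.23) over 7 tumours with an adjusted p of 0.0515 by edgeR's test, which did not pass, and 0.84 (adjusted p = 0.361) over 8. Cdkn1a passed in 5 of 16 alternatives over 7 tumours, 3 of them edgeR fits (upper-quartile scaling, no low-count filter and no robust estimates, adjusted p 0.0374 to 0.0499) and 2 of them DESeq2 fits (adjusted p of 0.00149 and 0.00152). With the muscle score in the edgeR fit its log2 fold change was 0.93 (SE 0.46, adjusted p = 0.804). Counts of Cdkn1b divided by those of Cdkn1a were 2.12, 1.63, 1.8 and 1.62 in KP 5 to KP 8, 0.470, 0.707 and 0.774 in KPH2 2 to 4 and 4.11 in KPH2 1. This ratio was chosen after the values were seen and is given as a description. Cdkn1c (p57, an imprinted gene) varied from 0.787 CPM in KPH2 4 to 85.3 CPM in KPH2 3, and its log2 fold change of 0.21 had an SE of 1.13 (adjusted p = 0.951 by edgeR's test).

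Upstream of the Rb family, 0 of 12 G1 cyclins and kinases passed by edgeR, with 9 higher and 3 lower. The smallest p-values were those of Mnat1, the assembly factor of the CDK-activating kinase (log2 fold change 0.59, adjusted p = 0.103), Cdk6 (0.64, adjusted p = 0.213) and the CDK-activating phosphatase Cdc25a (−0.47, adjusted p = 0.231), all by edgeR's test. Mnat1 was higher in all 4 KPH2 tumours (33.4 to 40.6 CPM) than in any KP tumour (20.2 to 27.2 CPM). Over all 8 tumours, groups that did not overlap were seen in 8.15% of all genes. DESeq2 called Mnat1 (adjusted p of 0.0393 without and 0.0404 with a prior).

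Downstream, 0 of 20 E2F target genes of S phase passed by edgeR, with 12 higher and a median log2 fold change of 0.15. Rrm2, a subunit of ribonucleotide reductase, had values of 0.72 (adjusted p = 0.0926), the licensing factor Cdt1 0.56 (adjusted p = 0.260) and the helicase subunit Mcm5 0.34 (adjusted p = 0.273) on the log2 scale by edgeR's test. DESeq2 called Rrm2 (adjusted p of 0.0229 without and 0.0237 with a prior). Over all 8 tumours 17 of the 20 were higher, beside 50.9% of all genes, and none passed by edgeR. The mean log2 CPM of this list was 6.018 in KPH2 1, 5.689 to 5.797 in KPH2 2 to 4 and 5.492 to 5.675 in KP tumours. Of 16 mitotic genes repressed by DREAM, 10 were higher, 6 were lower and 0 passed, with Mki67 at −0.37 (adjusted p = 0.432), the kinesin Cenpe at −0.24 (adjusted p = 0.446) and the kinase Aurka at 0.27 (adjusted p = 0.493). Without 1 tumour these ran from −0.52 to −0.23, −0.31 to −0.16 and 0.13 to 0.37, with the values nearest 0 without KP 5, KP 6 and KPH2 4, and with the muscle score in the fit they were −0.80, −0.09 and 0.40. Of 7 genes of the MuvB core and its partners 0 passed and 2 were higher, and the log2 fold changes of Rbbp4, Lin54 and Lin52 were 0.22, −0.21 and −0.16 (adjusted p 0.467 to 0.787 by edgeR's test). Lin54 was −0.09 without KPH2 3 and −0.31 without KP 7, and Lin52 was −0.06 without KP 7 and −0.28 without KP 6.

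Regulators of the Ink4-Arf locus, mostly Polycomb proteins and their opponents, gave 0 of 21 past the adjusted p by edgeR, with 11 higher and 10 lower and a median log2 fold change of 0.01. Cbx7, a Polycomb reader known to repress the locus, was 5.98 to 11.8 CPM in KP tumours and 14.6 to 17.0 CPM in KPH2 2 to 4, with KPH2 1 at 6.97 CPM (log2 fold change 0.87, adjusted p = 0.129 by edgeR's test). DESeq2 called Cbx7 (adjusted p of 0.0447 without and 0.0457 with a prior). The histone demethylase Kdm6b (0.49, adjusted p = 0.270) and the repressor Twist1 (−0.35, adjusted p = 0.318) followed. The neighbours of the locus, Mtap and Dmrta1, had log2 fold changes of 0.19 and 0.72 (adjusted p = 0.509 and 0.318), and that of Dmrta1 was 0.31 without KPH2 3. Mtap was 130 to 161 CPM in KP tumours, 167 to 176 CPM in KPH2 2 to 4 and 242 CPM in KPH2 1. The genotypes thus did not overlap, as in 8.15% of all genes over 8 tumours, and neither fit called it.

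ARF partners gave 0 of 5 past the adjusted p, with 2 higher and 3 lower. Log2 fold changes of the ubiquitin ligase Huwe1, of Mdm2 and of nucleophosmin (Npm1) were 0.20, −0.24 and 0.07 (adjusted p 0.530 to 0.827 by edgeR's test). Mdm2 ranged from 47.9 CPM in KPH2 3 to 96.0 CPM in KPH2 2, both beyond the KP range of 66.7 to 80.9 CPM, and its log2 fold change was −0.64 without KPH2 2, −0.07 without KPH2 3 and −0.08 without KPH2 4. Npm1 was 0.04 without KPH2 2 and 0.05 without KP 7. For p27, 0 of 10 genes of its turnover and transcription passed, with 6 higher and 4 lower. Foxo4, a forkhead factor known to raise p27 transcription, was at 0.57 (adjusted p = 0.273), the SCF scaffold Cul1 at 0.35 (adjusted p = 0.298) and the SKP2 cofactor Cks1b at −0.25 (adjusted p = 0.543, and −0.13 without KP 8) on the log2 scale. Most of the Foxo4 difference came from KPH2 3, at 51.5 CPM against 23.0 to 27.97 CPM in the other 6 tumours compared, and it was 0.19 without that tumour.

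No gene named from the pathway lists passed edgeR's adjusted p over all 8 tumours (0.136 for Mnat1 to 0.991 for Cdkn1c) or with the muscle score in the fit. With KPH2 1 included 7 of them moved by more than 1.5 times, Cdc25a to −0.29, Lin52 to −0.06, Mki67 to −0.23, Mtap to 0.34, Npm1 to 0.28, Twist1 to −0.16 and Cdkn1c to −0.04 on the log2 scale. With the muscle score in the fit the log2 fold change was 1.42 for Cbx7 (adjusted p = 0.565 by edgeR's test), 0.9996 for Cdt1, 0.80 for Kdm6b and 0.46 for Rbbp4. It was 0.22 for Mcm5, −0.40 for Mdm2 and 0.02 for Npm1. For Foxo4, Dmrta1 and Cdkn1c it turned to −0.09 (SE 0.41), −0.17 (SE 0.61) and −5.10 (SE 2.91). Mean log2 CPM of the muscle markers was 3.185 to 4.413 in KP tumours and 4.823 to 7.181 in KPH2 2 to 4. These ranges did not overlap, so this fit could hardly tell genotype from muscle content.

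The genes most like each member were found by Pearson correlation of log2 CPM over the 8 tumours among 14805 genes, as a description. For Cdkn2a they were E2f6, Rps6kc1 and Fam134a (r = 0.970, 0.966 and 0.964), and for Cdkn2b they were Agap1, Gtdc1 and Map4k4 (0.973, 0.956 and 0.937). Cdkn2c was closest to Bloc1s3, Fbxl8 and Brp44 (0.962, 0.956 and 0.940) and Cdkn2d to Cadps, Hspa1l and Gpr123 (0.946, 0.945 and 0.940). Cdkn1b ran closest to Matk, Gm10099 and Slc22a15 (0.976, 0.970 and 0.959). In the Rb family the leading genes were Acvr2a, Clcn4-2 and Acsl1 for Rb1 (0.975, 0.969 and 0.968), Nsf, Zfp871 and H2afy for Rbl1 (0.985, 0.963 and 0.961) and Ddx5, Ctf1 and Usp9x for Rbl2 (0.980, 0.974 and 0.971). No member was among the 3 closest genes of another, which says little with 3 places for 14805 genes. These r values are the highest of 14805 over only 8 points, and the points share their libraries and depth. For Cdkn1b the points include KPH2 1, at 59.5 CPM against 30.4 to 47.8 CPM in the other tumours.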

How the data were processed

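The authors extracted RNA from FFPE sections of 4 KP and 4 KPH2 tumours and sequenced it on an Illumina HiSeq 2000 after ribosomal RNA removal. The authors aligned reads to GRCm38 with STAR 2.4 and deposited raw counts per RefSeq gene from htseq-count (HTSeq 0.6.1). The authors also deposited log2 values from the regularised log transformation of DESeq2 1.6, over 7 and over 8 tumours.

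Counts were tested in R 4.3.3 with edgeR 4.0.16 (TMM, minimum count 10, minimum total count 15, robust quasi-likelihood test), and a prior count of 2 was added for log2 CPM. P-values were adjusted over every tested gene by the method of Benjamini and Hochberg, and 0.05 was the threshold. Alternatives used DESeq2 1.42.0, other normalisations and filters, a skeletal muscle score as a covariate, and fits without each tumour. Exact permutation tests were 2-sided and used differences of mean log2 CPM. Exon lengths came from GENCODE transcripts with a RefSeq identifier. The scripts were tested on simulated data. As a check for a library deposited more than once, pairs of the same genotype were compared by chi-square per degree of freedom, which was 28.3 or more. The members and gene lists were chosen with earlier results of these data known.

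Named genes were all 8 members, Epas1 and Trp53, and from each pathway list the genes past the adjusted p or, if none, up to 3 with the smallest p, plus the 3 genes with the highest correlation to each member. Marker lists of T and NK cells, B cells, adipocytes, Schwann cells and pericytes or smooth muscle had 1 of 9, 0 of 1, 2 of 3, 3 of 5 and 2 of 7 tested genes higher in KPH2 over 7 tumours, and those past the adjusted p were 1 Schwann cell gene that was higher and 1 pericyte or smooth muscle gene that was lower. Kpc1 and Adgre1 of the lists were not matched by symbol. One more gene that the rule names is not reported here.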

Additional observations from a re-analysis of the deposited data

Results flagged for a closer look

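In 2 of 16 groups of 4 tumours (8 genes in each genotype), 1 tumour lay far from the other 3 by Dixon's test, which chance alone flags in about 1 of 20 groups. Cdkn2c in KP 8 stood at 26.9 CPM against 19.1 to 20.1 CPM in the other KP tumours, a gap of 0.869 of the group's range. Cdkn1b in KPH2 1 stood at 59.5 CPM against 30.4 to 34.4 CPM in the other KPH2 tumours, a gap of 0.861 of the range. KPH2 1 is the tumour that was set apart in every comparison over 7 tumours.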

How the results depend on the processing

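No member passed the adjusted p under any of the 16 alternatives to the fit over 7 tumours or the 9 to the fit over all 8. Of the members' values under these alternatives 192 kept their direction and side of the threshold and 8 turned. Of their 16 differences of deposited rlog values, which have no test, 15 moved by less than the spread and 1 by more (Cdkn1b, −0.23). With the muscle score as a covariate Cdkn2c was −0.33, Rb1 −0.18 and Cdkn1c −5.10 (SE 2.91) on the log2 scale. Foxo4 was then −0.087, Dmrta1 −0.17 and Trp53 0.31. Muscle marker levels did not overlap between KP tumours and KPH2 2 to 4, so this fit could hardly tell genotype from muscle content. Over all 8 tumours Cdkn1c was −0.043 and Trp53 0.012. Leaving out each tumour gave −0.55 to 0.028 for Cdkn2d, −2.02 to 0.78 for Cdkn1c and −0.13 to 0.076 for Trp53 over 7 tumours, and −0.39 to 0.011 for Cdkn1b and −0.14 to 0.051 for Rbl1 over 8. The count of all genes past the adjusted p, 292 over 7 tumours, was 1 with KPH2 1 included, 3 with the muscle covariate, 1175 and 1169 by DESeq2 without and with a prior, and 55 to 349 without 1 tumour. Over all 8 tumours it was 1, 648 by DESeq2 (an alternative chosen after seeing the data) and 0 to 292 without 1 tumour. The cause of these changes was not tested. No paired analysis was possible because the groups share no replicate number. With 3 KPH2 tumours, the members' 95% intervals reached from −0.91 to 1.10 on the log2 scale.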
